A study of Mus musculus with 18 samples.

Results

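The contacts of the Ifng gene in 3T3-L1 cells were compared with its contacts in CD4 T cells, using the 2 arrays of 3T3-L1 and the 6 arrays of naive, T helper 1 (Th1) and T helper 2 (Th2) cells (2 of each) among the 18 arrays of the series. The assay was 4C (circular chromosome conformation capture), hybridised to tiling arrays. Crosslinked chromatin was digested with HindIII and its ends joined, the product was digested with Csp6I and circularised, and DNA joined to the chosen gene, the bait, was recovered by inverse PCR and carried Cy5. Uncaptured genomic DNA of the same cells, digested with the same enzymes, carried Cy3. The value of a probe is the log2 ratio of Cy5 over Cy3, so that a high value marks DNA often joined to the bait.

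The 3T3-L1 group was untreated cells of a mouse line of preadipocytes that descends from embryonic fibroblasts. The naive group held untreated primary CD4 T cells, and the Th1 and Th2 groups held CD4 T cells taken through Th1 or Th2 conditions. The 2 arrays of Stat4 knockout Th1 cells, made with the same bait, entered only the estimate of the spread. The labels gave no age, strain or number of animals, and did not say whether the arrays of a group came from separate cultures or mice, so the p-values speak only of the spread among these arrays, which may be technical. The labels of the 3T3-L1 arrays also carried a T cell characteristic, and the title and source name were followed instead. The arrays read contacts and not expression, so the cell type could not be checked against markers.

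Interferon gamma, the product of Ifng, is the cytokine that defines Th1 cells, and it activates macrophages. Th1 cells transcribe it strongly on stimulation, with the help of the factors T-bet and STAT4, Th2 cells keep it silent, and cells of the fibroblast lineage do not use it. In 4C the signal is highest beside the bait and falls with distance along its chromosome, and contacts beyond the first megabases reflect which parts of the chromosome, or of other chromosomes, lie near the bait in the nucleus. Active and inactive chromatin tend to occupy separate compartments in the nucleus. The comparison of 3T3-L1 with T cells asks how far the neighbourhood of Ifng differs between a lineage that never uses the gene and cells that can.

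The 250 bases before the start of Ifng are shown because they are the promoter of the bait gene, on the plus strand of chr10:118440796-118441045 in GRCm38.p6 (RefSeq). Capitals mark the one match to TTCNNNGAA, the palindromic motif bound by STAT proteins, which begins 249 bases before the start.
Ifng promoter: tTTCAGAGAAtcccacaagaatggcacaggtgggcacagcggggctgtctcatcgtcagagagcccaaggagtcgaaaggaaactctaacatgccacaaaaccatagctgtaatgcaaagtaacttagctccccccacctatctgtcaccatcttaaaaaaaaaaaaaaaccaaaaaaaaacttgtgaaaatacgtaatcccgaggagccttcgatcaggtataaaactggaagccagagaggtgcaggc
The letters TTCNNNGAA occurred in 7.02% of 32851 mouse promoter windows, searched on both strands. The window held neither AAGCTT, the HindIII site (6.22% of promoter windows), nor GTAC, the Csp6I site (31.5%). All coordinates below are in mm8, another build, found from the probe positions.

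Each array held 384942 probes, and 5021 bins of 500 kb were tested, 249 on chromosome 10 and 4772 on other chromosomes. The median of the probes off chromosome 10 was subtracted from each array, so 0 is the typical level of the other chromosomes. The highest bin was chr10:117500001-118000000 in both 3T3-L1 arrays (2.46 and 2.63) and in 4 of the 6 T cell arrays; naive replicate 2 and Th1 replicate 1 peaked within 1 Mb of it. The centre of that bin was taken as the bait position and bins within 1 Mb of it were left out. Over the bins of chromosome 10 the 3T3-L1 replicates correlated at r = 0.96, and over the bins of other chromosomes at 0.50. After sorting, 99.993% of the values of the 3T3-L1 arrays were equal within 0.011, as a quantile step within the pair before deposit would give. Such a step narrows the spread, and it was inferred from the values alone. Th1 replicate 2 correlated at 0.41 with Th2 replicate 2 of the Il4 bait over probes off the bait chromosomes and at 0.071 with its own replicate, so the main counts are also given without the Th1 arrays. The leading digits of each array's serial number were taken here as its serial series. The 3T3-L1 arrays came from a different series each, and no T cell array shared either, so array series and cell type cannot be told apart. Both naive arrays shared a series and both Th2 arrays another, and the Th1 arrays were split between them. Differences between naive and Th2 cells cannot be told apart from series either. With 2 arrays in the 3T3-L1 group, precision is limited by their number.

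The largest gain of Ifng contacts in 3T3-L1 was one block of chromosome 10, in band 10qD1. Its named region lay 10.25 Mb from the bait towards the centromere (distances of regions are those of the nearer edge). Over chr10:106000001-107500000 (255 probes) the 3T3-L1 arrays stood at 1.57 and 1.63. The naive arrays stood at 0.54 and 0.60, the Th1 arrays at 0.33 and 0.14 and the Th2 arrays at 0.54 and 0.68. Named regions were chosen among bins that passed and in which the 3T3-L1 and T cell arrays did not overlap. Their separation in these regions therefore follows from the rule. The means were 1.60 ± 0.04 in 3T3-L1 (SD, n = 2) and 0.47 ± 0.20 in T cells (SD, n = 6). The difference was 1.12 on the log2 scale (SE 0.081, adjusted p = 2.91e-10, limma, SE and p of the best bin).

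At 100-kb resolution the block had sharp sides. The 3T3-L1 arrays stood at 0.15 and 0.23 over chr10:106500001-106600000 and at 2.60 and 2.72 over the next 100 kb. They peaked at 2.83 and 3.16 over chr10:106800001-106900000, against 0.83 and 0.98 in naive cells, 0.30 and 0.24 in Th1 cells and 0.37 and 0.63 in Th2 cells, a difference of 2.44 (SE 0.106, adjusted p = 2.97e-07, limma). At the side nearer the bait the 3T3-L1 level was 2.06 and 2.22 over chr10:107700001-107800000 and 0.16 and 0.20 over the next 100 kb. The stretch with a raised 3T3-L1 level thus ran over chr10:106600001-107800000, while the named region began before it and ended inside it. Not all of this stretch passed against T cells: chr10:107300001-107400000 did not (adjusted p = 0.153, limma), nor did other bins given below. The first side also stood in naive cells, which had −0.08 and 0.04 before it and 1.43 and 1.70 after it, while the Th1 arrays had −0.07 and −0.09 after it. Inside the block, neighbouring bins of 100 kb that were chosen after their values were seen had a high level in all cell types. Over chr10:107400001-107500000 the 3T3-L1 arrays had 2.37 and 2.30, the naive arrays 1.41 and 1.09, the Th1 arrays 1.52 and 1.20 and the Th2 arrays 1.26 and 1.60. Over chr10:107500001-107600000 the 3T3-L1 arrays had 1.89 and 1.88, the naive arrays 1.19 and 1.29, the Th1 arrays 1.51 and 1.64 and the Th2 arrays 1.30 and 1.21. The next 100 kb had 1.38 and 1.71 in 3T3-L1 and 0.59 to 1.90 in the T cell arrays, and did not pass (adjusted p = 0.576, limma). In the last 100 kb of the block, where 3T3-L1 had 2.06 and 2.22, the naive arrays had 1.34 and 0.23, the Th1 arrays −0.06 and 0.37 and the Th2 arrays 0.72 and 2.34. This bin did not pass (adjusted p = 0.0643, limma). Past it naive replicate 1 fell to 0.09 and Th2 replicate 2 to 0.81, while Th2 replicate 1 rose to 1.31. The side nearer the bait thus also stood in some T cell arrays. Of the 15 bins of 100 kb in the region 8 passed the test, where 2.51% of the 24589 such bins of all chromosomes did. The region was chosen because its 500-kb bins, made of the same probes, had passed. An excess of passing 100-kb bins therefore follows from that choice and is no separate support.

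The block was not carried by a few probes. Of the 255 probes of the named region 144 and 145 lay above a log2 ratio of 1 in the 3T3-L1 arrays (56.5% and 56.9%), against 52 and 63 in naive, 40 and 15 in Th1 and 48 and 52 in Th2 arrays. Over chromosome 10 as a whole the share of probes above 1 was 9.38% and 9.56% in the 3T3-L1 arrays, while it was 26.9% and 27.8% in naive, 14.0% and 7.74% in Th1 and 14.3% and 18.2% in Th2 arrays. The 3 bins from chr10:106500001-107000000 to chr10:107500001-108000000 were the highest of all 3T3-L1 bins more than 5 Mb from the bait, with means of 2.22, 2.16 and 1.21. The next was chr10:122500001-123000000, with 0.67.

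**Figure D1:**
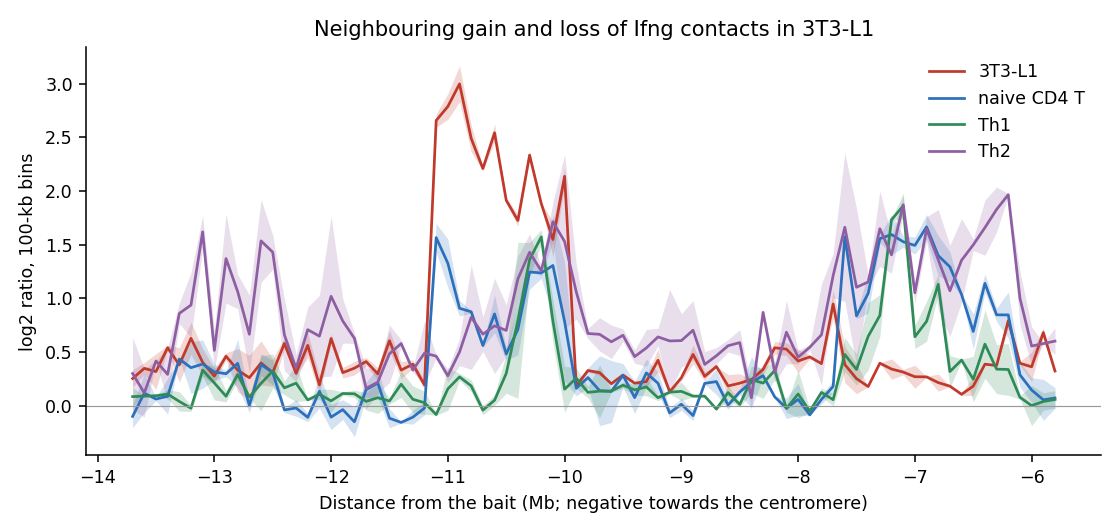
Log2 ratio of Cy5 over Cy3 in 100-kb bins (vertical axis) against the distance from the bait in Mb (horizontal axis, negative towards the centromere), with a line for the mean and a band for both arrays of 3T3-L1, naive, Th1 and Th2 cells. The 3T3-L1 line lies between 2.60 and 2.72 where the block begins and peaks at 2.83 to 3.16 inside it, and in the region whose nearer edge is 6.75 Mb from the bait it stays below all T cell lines.

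Nearer the bait lay the largest loss of the named regions. Over chr10:110500001-111000000, also in 10qD1 and 6.75 Mb from the bait, the 3T3-L1 arrays stood at 0.28 and 0.29. The naive arrays stood at 1.55 and 1.54, the Th1 arrays at 1.31 and 1.21 and the Th2 arrays at 1.52 and 1.47. The means were 0.29 ± 0.01 in 3T3-L1 (SD, n = 2) and 1.43 ± 0.14 in T cells (SD, n = 6). The difference was −1.15 (SE 0.041, adjusted p = 8.57e-12, limma). All 5 of its 100-kb bins passed, which the choice of the region by the same probes favours. The gain and this loss lie in the same band, and the mean of 10qD1 did not pass the test (0.48 in 3T3-L1, 0.44 in T cells, adjusted p = 0.624).

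Of the 8 named losses, 3 lay on the telomere side of Ifng. Over chr10:120000001-121000000 in 10qD2 the 3T3-L1 arrays had 0.74 and 0.74, against 2.12 and 2.15 in naive, 1.15 and 1.06 in Th1 and 1.94 and 2.38 in Th2 cells (difference −1.06, adjusted p = 1.22e-08). Over chr10:122000001-122500000 they had 0.37 and 0.40, against 2.01 and 1.95 in naive, 1.33 and 1.11 in Th1 and 1.14 and 1.49 in Th2 cells (difference −1.12, adjusted p = 2.34e-08). Over chr10:126500001-128500000 in 10qD3, the longest of these at 2.0 Mb, they had 0.18 and 0.24, against 1.66 and 1.67 in naive, 1.17 and 1.12 in Th1 and 0.80 and 1.12 in Th2 cells (difference −1.05, adjusted p = 2.91e-10). In all 3 regions the 3T3-L1 arrays lay below every T cell array, as the rule for named regions requires, and close to each other. Between them the cell types were not uniformly apart: over chr10:123000001-123500000, outside the rule and chosen after its values were seen, 3T3-L1 had 0.63 and 0.65, where the means of naive, Th1 and Th2 cells were 0.15, 0.09 and 0.70.

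The other 4 named losses lay 21.25 to 95.75 Mb from the bait towards the centromere. The longest was chr10:92500001-96500000 (4.0 Mb, 692 probes), with 0.04 and 0.10 in 3T3-L1, against 1.11 and 1.20 in naive, 0.81 and 0.66 in Th1 and 0.62 and 0.73 in Th2 cells (difference −0.79, adjusted p = 7.47e-09). With the median of the probes in a bin in place of the mean, its difference was −0.35 and did not pass (adjusted p = 0.0576). Over chr10:84000001-84500000 the 3T3-L1 arrays had 0.22 and 0.11, against 1.47 and 1.58 in naive, 0.60 and 0.30 in Th1 and 1.04 and 1.04 in Th2 cells (difference −0.84, adjusted p = 1.56e-08). In these regions 3T3-L1 stood within 0.22 of the level of other chromosomes, and the T cell types differed from each other.

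The most distant losses were largest against naive cells. Over chr10:58500001-60000000 in 10qB4 the 3T3-L1 arrays had 0.06 and 0.09, against 1.82 and 1.79 in naive, 0.53 and 0.46 in Th1 and 0.49 and 0.57 in Th2 cells. Over chr10:21000001-22000000 in 10qA3 they had 0.09 and 0.06, against 1.98 and 2.00 in naive, 0.33 and 0.30 in Th1 and 0.21 and 0.25 in Th2 cells. The differences from all T cells were −0.86 (adjusted p = 2.91e-10) and −0.77 (adjusted p = 2.28e-09). Set against Th2 cells alone, the second region had a difference of −0.16, which did not pass (adjusted p = 0.0743), and against Th1 cells −0.24 (adjusted p = 0.00658).

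**Figure D2:**
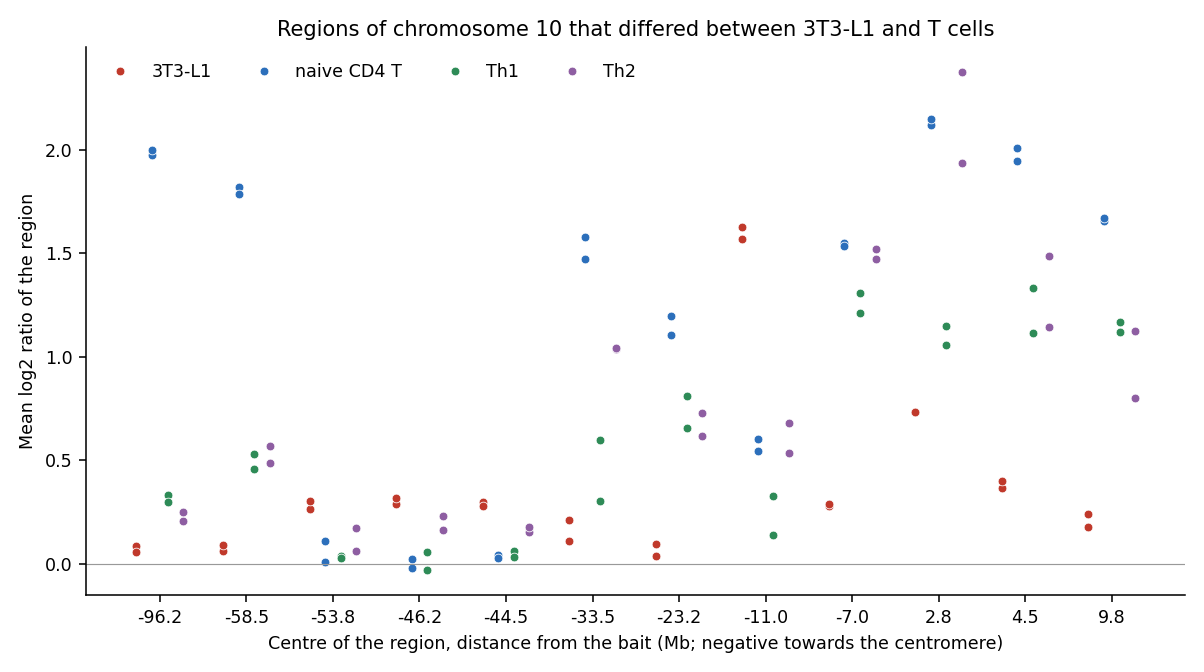
Mean log2 ratio (vertical axis) of each of the 12 named regions of chromosome 10 in each array, with the regions ordered along the chromosome by the distance of their centre from the bait in Mb (horizontal axis, negative towards the centromere) and 3T3-L1 drawn left of the naive, Th1 and Th2 arrays. By the rule that named the regions, the 3T3-L1 points lie below all T cell points in the 8 losses and above them in the 4 gains. Of the gains only the block at 1.60 exceeds 1.

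The 3 smaller gains of chromosome 10 lay 43.75 to 53.25 Mb from the bait. Over chr10:71000001-72000000 the 3T3-L1 arrays had 0.29 and 0.32, against 0.02 and −0.02 in naive, 0.06 and −0.03 in Th1 and 0.16 and 0.23 in Th2 cells (difference 0.23, adjusted p = 0.000337). Over chr10:72500001-74000000 they had 0.30 and 0.28, against 0.04 and 0.03 in naive, 0.06 and 0.03 in Th1 and 0.15 and 0.18 in Th2 cells (difference 0.21, adjusted p = 0.000102). Over chr10:63500001-64500000 they had 0.27 and 0.30, against 0.11 and 0.01 in naive, 0.04 and 0.03 in Th1 and 0.06 and 0.17 in Th2 cells (difference 0.21, adjusted p = 0.00198). In these stretches naive and Th1 cells stood near the level of other chromosomes. Against Th2 cells alone the differences were 0.11, 0.12 and 0.17, and of these only that of chr10:72500001-74000000 passed (adjusted p = 0.0323).

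Over the genome 615 of 5021 bins passed the test against T cells, 12.2% of those tested, with 334 higher (6.65%) and 281 lower (5.6%) in 3T3-L1. With each array scaled by its own spread there were 388 higher and 160 lower, so the share of higher bins was 70.8%, where it was 54.3% without scaling. On chromosome 10, 21 bins were higher (8.43%) and 134 lower (53.8%) of 249, and on other chromosomes 313 were higher (6.56%) and 147 lower (3.08%) of 4772. With the median of the probes per bin, 279 bins passed in all, and chromosome 10 held 32 higher and 61 lower bins. At an unadjusted p under 0.05 there were 1340 bins. The median difference over the bins of chromosome 10 was −0.21, and 183 of 249 bins had a difference below 0. Against single T cell types the median was −0.32 for naive, −0.02 for Th1 and −0.20 for Th2 cells. The bins below 0 then numbered 177, 131 and 215 of 249, so the broad lowering was hardly seen against Th1 cells. Both 3T3-L1 arrays lay below all 6 T cell arrays in 86 of these 249 bins and above them in 10; the arrays did not overlap in 38.6% of bins of chromosome 10 and in 19.4% of all bins. Leaving out 3T3-L1 replicate 1 gave 222 bins, leaving out 3T3-L1 replicate 2 gave 264, and without the Th1 arrays there were 837. All 22 named regions kept their direction and call without the Th1 arrays.

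**Figure D3:**
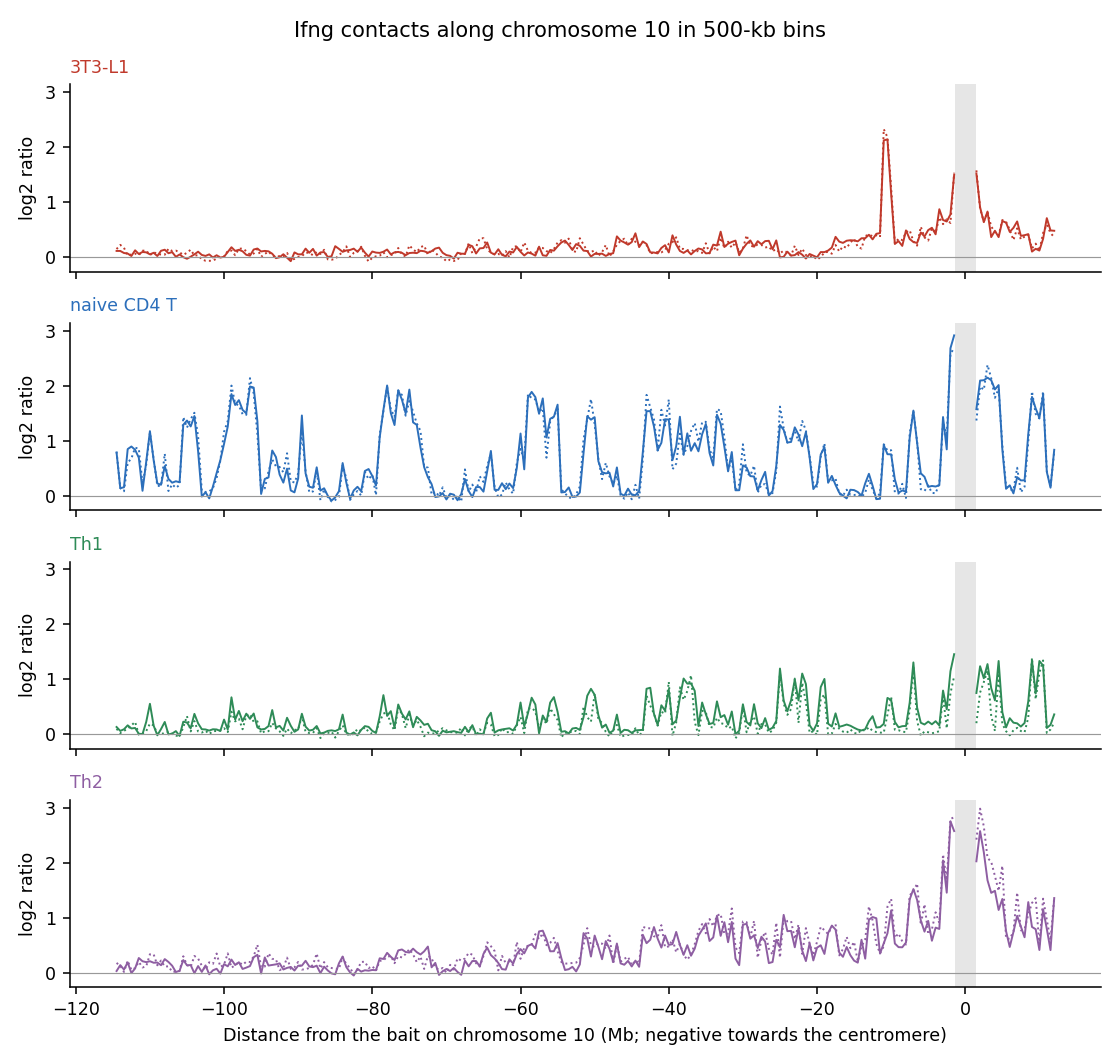
Log2 ratio in 500-kb bins (vertical axis of each panel) along chromosome 10 (horizontal axis, distance from the bait in Mb, negative towards the centromere), with 3T3-L1 in the top panel and naive, Th1 and Th2 cells below it and a line for each array. The 3T3-L1 lines stay near 0 over most of the chromosome, apart from the block at 2.22 and the neighbourhood of the bait, while the mean of the naive lines reaches 2.06 at a distant peak.

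The T cell types were next taken one at a time. The 3 comparisons share the 3T3-L1 arrays, so their values are set side by side and not compared by overlap. Against naive cells 1213 bins passed (24.2%), 643 higher (12.8%) and 570 lower (11.4%), and on chromosome 10 there were 34 higher (13.7%) and 142 lower (57%). Against Th1 cells 194 passed (3.86%), 140 higher (2.79%) and 54 lower (1.08%), of which chromosome 10 held 30 higher (12% of its bins) and 51 lower (20.5%). Against Th2 cells 292 passed (5.82%), 119 higher (2.37%) and 173 lower (3.45%), and chromosome 10 held 3 of the higher (1.2% of its bins) and 109 of the lower (43.8%). Scaling each array by its spread gave 418 higher and 140 lower against naive cells, 206 and 132 against Th1 cells, and 152 and 68 against Th2 cells. The balance on chromosome 10 depended on the summary of a bin. With the median per bin chromosome 10 held 34 higher and 89 lower bins against naive cells, 21 higher and 4 lower against Th1 cells, and 15 higher and 11 lower against Th2 cells. Each count depended on single arrays: it was 413 against naive cells without 3T3-L1 replicate 1 and 545 without naive replicate 2. Against Th1 cells it was 91 to 114 without any one of the 3T3-L1 or Th1 arrays. Against Th2 cells it was 124 and 154 without 3T3-L1 replicate 1 and 2, and 154 and 190 without Th2 replicate 1 and 2.

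Of the 5021 bins, 106 passed with the same sign in all 3 comparisons (2.11%), 71 higher and 35 lower in 3T3-L1. All 35 lower bins lay on chromosome 10, and 68 of the 71 higher bins lay on other chromosomes. The block on 10qD1 passed against each type, with differences of 1.02 from naive, 1.36 from Th1 and 0.99 from Th2 cells. The loss at chr10:110500001-111000000 also passed against each, with −1.26, −0.97 and −1.21. At chr10:115500001-116000000, which was outside the rule and was chosen after its values were seen, the 3T3-L1 arrays had 0.78 and 0.62, against 2.68 and 2.57 in naive and 2.75 and 2.80 in Th2 cells. Its Th1 arrays, at 1.15 and 0.75, overlapped with 3T3-L1.

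The level of the signal in classes of distance was then compared by the exact permutation test over the 8 arrays, two-sided, whose smallest possible p is 0.0357. At 1 to 2 Mb from the bait the 3T3-L1 arrays averaged 1.55 and 1.55, against 2.58 and 2.30 in naive, 1.35 and 0.93 in Th1 and 2.57 and 2.81 in Th2 cells. At 20 to 40 Mb they averaged 0.16 and 0.16, against 0.72 and 0.77 in naive, 0.44 and 0.33 in Th1 and 0.58 and 0.68 in Th2 cells, a difference of −0.43. The groups overlapped at 1 to 2 Mb and did not overlap at 20 to 40 Mb (exact permutation p = 0.0357, adjusted p = 0.161 over 9 classes). Beyond 80 Mb the 3T3-L1 level was 0.07 and 0.06, against 0.61 and 0.61 in naive, 0.16 and 0.10 in Th1 and 0.12 and 0.16 in Th2 cells, a difference of −0.23 (exact permutation p = 0.0714, adjusted p = 0.161). No distance class passed after adjustment, which with this smallest p would need most of the classes to reach it. At 10 to 20 Mb, where the named region of the 10qD1 block lies, the averages were 0.50 and 0.46 in 3T3-L1, against a mean of 0.45 ± 0.19 in T cells (SD, n = 6).

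The level next to the bait differed among the arrays with these losses. The 3T3-L1 level at 1 to 2 Mb lay below that of naive and Th2 cells and above that of Th1 cells, while the level at 20 to 40 Mb lay below all 3 types. Taken relative to each array's own level at 1 to 2 Mb, the level at 20 to 40 Mb was −1.38 and −1.39 in 3T3-L1, against −1.86 and −1.53 in naive, −0.91 and −0.60 in Th1 and −1.98 and −2.13 in Th2 cells. On that scale 3T3-L1 lay above naive and Th2 cells and below Th1 cells. The named regions of chromosome 10, which were chosen because they passed, all kept their direction and call when the arrays were scaled by their spread or quantile normalized. The spread used for scaling was that of bins off chromosome 10. Neither setting brings the arrays to a common level at 1 to 2 Mb. Whether the differences in these regions follow that level was not tested. On the telomere side at 2 to 5 Mb the 3T3-L1 arrays had 0.53 and 0.58, against 1.96 and 1.96 in naive, 0.98 and 0.68 in Th1 and 1.68 and 2.13 in Th2 cells. On the centromere side at the same distance they had 0.63 and 0.57, against 0.69 and 0.67 in naive, 0.39 and 0.16 in Th1 and 1.24 and 1.38 in Th2 cells. The groups did not overlap on the telomere side (difference −1.01, exact permutation p = 0.0357, adjusted p = 0.107) and overlapped on the centromere side (difference −0.15, exact permutation p = 0.714).

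**Figure D4:**
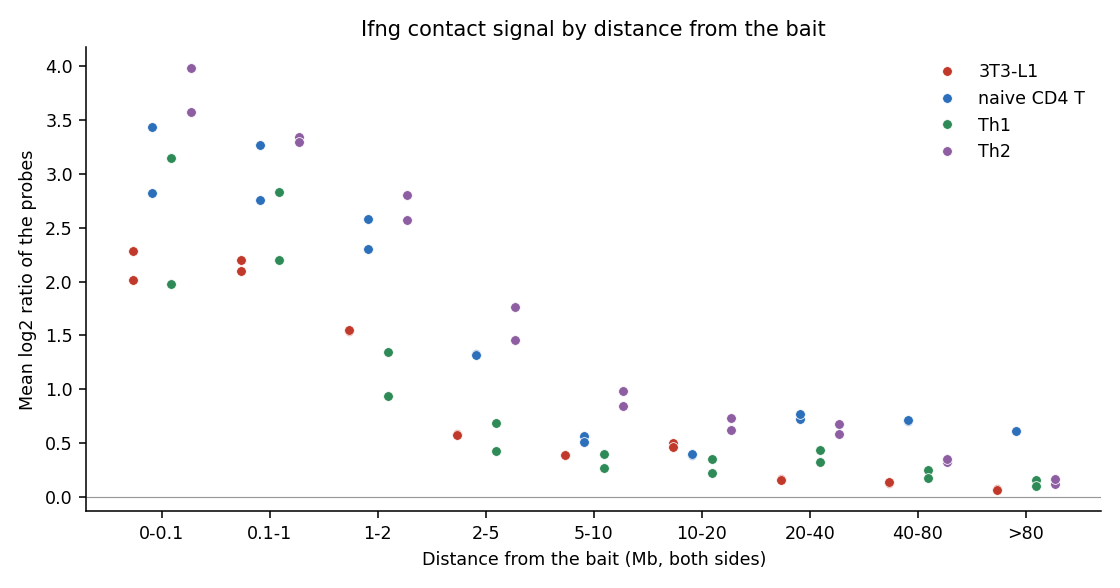
Mean log2 ratio of the probes (vertical axis) in 9 classes of distance from the bait in Mb, both sides together (horizontal axis), in each array, with 3T3-L1 drawn left of naive, Th1 and Th2 cells. At 20 to 40 Mb the 3T3-L1 points, at 0.16, lie below all T cell points, and at 10 to 20 Mb they lie among them.

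The shape of the profile over the 249 bins of chromosome 10 was described by Pearson correlations between arrays, which share the fall of signal with distance. Profiles of 3T3-L1 correlated with those of Th2 cells at 0.58 to 0.60, with those of Th1 cells at 0.12 to 0.28 and with those of naive cells at 0.098 to 0.19. Among the T cells, naive correlated with Th1 at 0.69 to 0.74 and with Th2 at 0.46 to 0.51, and Th1 with Th2 at 0.48 to 0.62. The replicates of 3T3-L1 correlated at 0.96, and those of naive, Th1 and Th2 cells at 0.97, 0.91 and 0.95. The Th2 arrays were thus the nearest to 3T3-L1 on this measure.

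Contacts were also called as bins in which the highest 5% of an array's probes were concentrated (binomial test in each array, adjusted over bins, both arrays of a group). There were 71 such bins in 3T3-L1, 46 of them on chromosome 10, against 160 in naive cells (142 on chromosome 10), 59 in Th1 cells and 105 in Th2 cells, all of the last 2 sets on chromosome 10. The 3T3-L1 set shared 42 bins of chromosome 10 with Th2 cells, 91.3% of its own and 40% of theirs. It shared 24 with naive cells (52.2% of its own, 16.9% of theirs) and 14 with Th1 cells (30.4% of its own, 23.7% of theirs). Of all bins of chromosome 10 tested, 41.8% were contacts of Th2, 56.6% of naive and 23.5% of Th1 cells. The share of the 3T3-L1 bins found in Th2 cells was above that of the whole chromosome, and the shares found in naive and Th1 cells were near it. Most of the 46 bins lay near the bait, from chr10:104000001 on, while the whole-chromosome share includes distant bins. At 5 to 10 Mb from the bait the mean signal was 0.91 in Th2, 0.54 in naive and 0.33 in Th1 cells. Sharing beyond that of bins at like distance was not tested. Of the 36 bins of chromosome 10 called in all 3 T cell types, 22 were not called in 3T3-L1 and 14 were. No T cell type had 4 of the bins of chromosome 10 called in 3T3-L1, nor any of its 25 bins on other chromosomes, of which 12 lay on chromosome 16. The number depended on the share of probes used: the highest 2% gave 40 bins in 3T3-L1 and the highest 10% gave 111.

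Genes were placed in cytogenetic bands, because the gene table and the probes are in different builds. A band can therefore be named for a gene that lies elsewhere in it than the changed bins. Of 401 bands 73 passed (18.2%), 47 higher (11.7%) and 26 lower (6.48%) in 3T3-L1. With the arrays scaled there were 71 higher and 14 lower, without the Th1 arrays 111 bands passed, and leaving out 3T3-L1 replicate 1 or 2 gave 30 and 33. On chromosome 10 14 of 17 bands were lower (82.4%) and none was higher, and 10qB3, 10qB5.3 and 10qD1 did not pass. The largest difference was in the small band 10qB5.2, with 0.06 ± 0.02 in 3T3-L1 (SD, n = 2) and 0.77 ± 0.35 in T cells (SD, n = 6), a difference of −0.71.

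All 7 bands that hold the 13 of 15 placed T cell and cytokine genes of chromosome 10 were lower in 3T3-L1, where 14 of all 17 bands of the chromosome were (82.4%). Their median difference was −0.41, and that of the 17 bands was −0.34, so the list stood near the chromosome as a whole. The bait's own band 10qD2, which also holds Il22, a cytokine of barrier defence, had 0.74 in 3T3-L1 and 1.15 in T cells (difference −0.41, adjusted p = 0.00907). Band 10qA3, with Ifngr1, a chain of the interferon gamma receptor, and Tnfaip3, an inhibitor of NF-kappaB signalling, had 0.09 and 0.59 (difference −0.49, adjusted p = 7.9e-06). Band 10qB4, with the perforin gene Prf1 of cytotoxic cells, had 0.14 and 0.57 (difference −0.44, adjusted p = 1.39e-05). Band 10qC1, with the integrin gene Itgb2, the costimulatory ligand gene Icosl and Aire, the regulator of self-antigen expression in the thymus, had a difference of −0.48. Band 10qD3, with Stat2, Stat6 and Il23a, had −0.37. Bands 10qB1, with the kinase gene Fyn, and 10qB2, with the repressor gene Prdm1, had −0.27 and −0.34.

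Of the 5 bands that hold the 15 of 17 placed mesenchymal and growth genes of chromosome 10, 4 were lower in 3T3-L1 and none was higher, again near the share over all its bands (14 of 17 lower, none higher). Band 10qC3, with the matrix proteoglycan genes Dcn, Lum and Kera, had 0.03 in 3T3-L1 and 0.55 in T cells (difference −0.52, adjusted p = 0.00185). Band 10qC1 also holds the collagen genes Col6a1 and Col6a2 and the growth factor gene Igf1, and 10qD2 also holds the chromatin gene Hmga2, the Wnt inhibitor gene Wif1 and the p53 regulator gene Mdm2. Band 10qD3 also holds Gli1, a transcription factor of hedgehog signalling, the cell cycle kinase gene Cdk4 and Ddit3, a stress-induced inhibitor of adipocyte differentiation. The myogenic genes Myf5 and Myf6 lie in 10qD1, the band that did not pass.

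Bands off chromosome 10 moved little with the lists of lineage genes. Of the 384 bands 47 were higher (12.2%) and 12 lower (3.12%), with a median difference of 0.01. None of the 20 bands of fibroblast and adipocyte genes passed, among them 6qE3 with Pparg, the master regulator of fat cells (0.03, adjusted p = 0.118), and 16qB1 with the adipokine gene Adipoq (0.02, adjusted p = 0.401). None of the 7 bands of the Th2 programme and none of the 11 bands of naive and pan-T genes passed. Of the 10 bands of the Th1 programme, 1qH5 with Hlx, a partner of T-bet, was higher in 3T3-L1 (0.16 and 0.07 in T cells, difference 0.09, adjusted p = 0.00494). Band 4qD3 with Runx3, a factor that promotes Ifng in Th1 cells, was lower (0.05 and 0.15 in T cells, difference −0.10, adjusted p = 0.0236).

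Contacts with other chromosomes were led by chromosome 16. Its mean over 14928 probes was 0.11 and 0.10 in the 3T3-L1 arrays, against 0.04 and 0.03 in naive, 0.05 and 0.04 in Th1 and 0.04 and 0.05 in Th2 cells. The difference of 0.07 (SE 0.0051, adjusted p = 9.31e-05, limma) passed against naive, Th1 and Th2 cells alone (0.08, 0.07 and 0.06). Chromosomes 1, 5, 6, 8, 12 and 18 were also higher in 3T3-L1, by 0.01 to 0.03, so that 7 of 20 chromosomes passed (35%). Of these further ones, only chromosomes 1 and 6 also passed against each T cell type alone. Chromosomes 5, 8, 12 and 18 did not pass against Th2 cells alone (adjusted p = 0.231, 0.591, 0.397 and 0.716, limma). Against Th1 cells alone 12 and 18 did not pass either (adjusted p = 0.0704 and 0.15, limma). With the median over the probes of a chromosome in place of the mean only 1 chromosome passed. The difference was then −0.01 for chromosome 5 and −0.00083 for chromosome 18. Leaving out 3T3-L1 replicate 1, 3T3-L1 replicate 2, naive replicate 1 or Th2 replicate 2 each gave 4. On chromosome 16, 43 of 190 bins were higher in 3T3-L1 (22.6%) and 6 lower (3.16%). Of all bins off chromosome 10, 6.56% were higher and 3.08% lower, so only the share of higher bins stood out. The next largest shares of higher bins were 14.0% on chromosome 6 and 10% on chromosome 5.

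**Figure D5:**
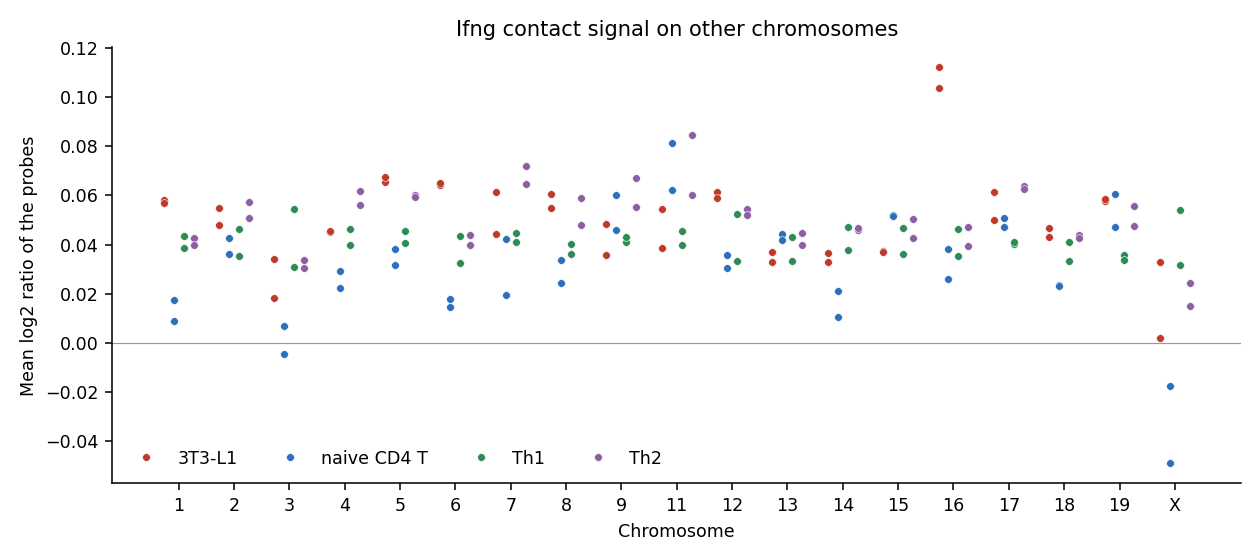
Mean log2 ratio of the probes (vertical axis) on each chromosome other than 10 and Y (horizontal axis) in each array, with 3T3-L1 drawn left of naive, Th1 and Th2 cells. The 3T3-L1 points on chromosome 16, at 0.11 and 0.10, lie above all others on that chromosome, which stay at or under 0.05.

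The gains on chromosome 16 came in separate stretches. Over chr16:9000001-10000000 in 16qA1 the 3T3-L1 arrays had 0.36 and 0.40, against 0.02 and −0.02 in naive, −0.02 and 0.00 in Th1 and 0.06 and 0.00 in Th2 cells (difference 0.37, SE 0.039, adjusted p = 1.29e-07). Over chr16:61500001-64000000 in 16qC1.3 they had 0.34 and 0.32, against −0.01 and −0.09 in naive, 0.05 and 0.03 in Th1 and −0.02 and 0.00 in Th2 cells (difference 0.34, SE 0.037, adjusted p = 3.3e-09). In both the T cell arrays stood at the level of other chromosomes. Band 16qB4 had the largest gain of all bands, 0.27 ± 0.02 in 3T3-L1 (SD, n = 2) and 0.02 ± 0.02 in T cells (SD, n = 6), and its differences from naive, Th1 and Th2 cells were 0.27, 0.24 and 0.25. Bands 1qH6 (0.21 and 0.04 in T cells) and 6qG2 (0.18 and 0.02 in T cells) came next.

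The other 3 named gains lay on chromosomes 4 and 6. Over chr6:130500001-131000000 in 6qF3 the 3T3-L1 arrays had 0.15 and 0.20, against −0.21 and −0.24 in naive, −0.05 and −0.20 in Th1 and −0.23 and −0.24 in Th2 cells (difference 0.37, adjusted p = 1.23e-05). Over chr6:132000001-132500000 they had 0.18 and 0.22, against −0.10 and −0.20 in naive, 0.00 and −0.01 in Th1 and −0.11 and −0.07 in Th2 cells (difference 0.28, adjusted p = 0.000192). These regions held only 40 and 49 probes, and most T cell arrays lay below 0 in them. Over chr4:146000001-146500000, with 25 probes, 3T3-L1 had 0.17 and 0.36, against −0.11 and −0.34 in naive, −0.10 and −0.19 in Th1 and 0.07 and 0.07 in Th2 cells (difference 0.37, adjusted p = 0.000877). In 1000-kb bins that difference was 0.02 and did not pass (adjusted p = 0.589), and without 3T3-L1 replicate 2 it was 0.27 and did not pass (adjusted p = 0.0738).

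The named losses off chromosome 10 were smaller. Over chr16:92500001-93000000 in 16qC4 the 3T3-L1 arrays had 0.00 and 0.00, against 0.62 and 0.67 in naive, 0.10 and 0.10 in Th1 and 0.10 and 0.14 in Th2 cells (difference −0.29, adjusted p = 2.45e-05). It was largest against naive cells: against Th1 and Th2 cells alone it was −0.10 and −0.13, and neither passed (adjusted p = 0.31 and 0.123). Over chr6:146000001-146500000, chr15:78500001-79000000, chr15:98500001-99000000 and chr7:45000001-45500000 the mean of 3T3-L1 was −0.05, −0.02, 0.00 and 0.02, against 0.17, 0.20, 0.22 and 0.23 in T cells, with adjusted p from 0.00156 to 0.0163. Each of the 5 had an alternative setting in which it did not pass.

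The level of a band off chromosome 10 was set beside its density of genes, as a description over 378 bands that share arrays and probe design. Pearson's r was −0.07 and 0.31 in the 3T3-L1 arrays, against 0.51 and 0.61 in naive, −0.02 and 0.43 in Th1 and 0.60 and 0.48 in Th2 arrays. The replicates of 3T3-L1 differed from each other in this measure, as did those of Th1. For the difference of 3T3-L1 from T cells r was −0.40 (Spearman's rho −0.42), so that gene-rich bands tended to have lower differences. On the 17 bands of chromosome 10 it was −0.28 (rho −0.46).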

How the data were processed

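Contacts of Ifng were measured on 2 arrays of 3T3-L1 and 6 of T cells. Per the labels' protocols the authors hybridised Cy5-labelled 4C product against Cy3-labelled digested genomic DNA, and deposited for every probe the log2 ratio of the channels (Cy5 over Cy3), used here without a filter. The log base was taken as 2; it, the scanner software, the background correction and the genome build are not given in the sources used here. By probe positions the build was mm8, in which 0 of 21 chromosomes were too short for their last probe, where mm9 had 5 such chromosomes and mm10 had 8, and chromosomes 20 and 21 of the files were taken as X and Y. The protocol text names adherent cells and baits other than Ifng, and mentions a pooled array that could not be found among the titles.

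Arrays were centred on the probes off chromosome 10 with no loess or quantile step. Means of 500-kb bins with at least 20 probes, of 100-kb bins with at least 8, of bands and of chromosomes were fitted with limma 3.58.1 in R 4.3.3 over the 10 Ifng arrays (group means, eBayes, two-sided, Benjamini-Hochberg over all units at 0.05), and 3T3-L1 was set against the mean of the naive, Th1 and Th2 means. Named regions are adjacent bins that passed and in which the arrays of both groups did not overlap, at most 8 in each direction on chromosome 10 and 5 elsewhere, by mean change. The SE and adjusted p of a region are those of its best bin. Members, genes and lists were chosen with earlier results of these data known. Bands came from circlize 0.4.16 and genes from RefSeq, leaving out genes within 1 Mb of a band's edge. The fits were tested on simulated data. Alternatives were other bin sizes, the median per bin, distance class or chromosome, quantile normalization, scaling by the spread, extreme probes left out, other eBayes settings, blocks, other groups in the fit, and each array left out in turn. Binomial tests used scipy 1.17.1, and permutation tests listed every split, both in Python 3.11.15. Tables used pandas 2.3.3, and figures used matplotlib 3.10.9.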

Additional observations from a re-analysis of the deposited data

Results flagged for a closer look

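In 12 of the 22 named regions the T cell types differed from each other (F test in limma, adjusted over all bins, best bin of the region), so that the change of 3T3-L1 depended on the T cell type it was set against. Most of these 12 regions lay on chromosome 10. The T cell types differed by that test in 190 of the 249 bins of chromosome 10 (76.3%), so on that chromosome such differences were also common outside the named regions. That share is per single bin, while a region is judged by its best bin, so the shares are not directly comparable. No such share is given for bins off chromosome 10, so the named regions there have no background to be set against. Among the gains, the difference from single T cell types ran from 0.99 to 1.36 at chr10:106000001-107500000 (adjusted p = 4.79e-05), from 0.11 to 0.30 at chr10:71000001-72000000 (0.0173) and from 0.19 to 0.49 at chr4:146000001-146500000 (0.0463). Among the losses near the bait it ran from −1.26 to −0.97 at chr10:110500001-111000000 (0.00181), from −1.42 to −0.37 at chr10:120000001-121000000 (1.75e-08), from −1.59 to −0.84 at chr10:122000001-122500000 (4.58e-05) and from −1.45 to −0.75 at chr10:126500001-128500000 (5.24e-09). Among the distant losses it ran from −1.91 to −0.16 at chr10:21000001-22000000 (1.87e-13), from −1.73 to −0.42 at chr10:58500001-60000000 (5.06e-13), from −1.36 to −0.29 at chr10:84000001-84500000 (2.31e-08) and from −1.08 to −0.61 at chr10:92500001-96500000 (6.56e-07). At chr16:92500001-93000000 it ran from −0.65 to −0.10 (8.49e-08). All values in parentheses are adjusted p of that F test.

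Of 51 sets of 6 T cell arrays tested for one array standing apart (Dixon's criterion), 1 did: at chr6:130500001-131000000 Th1 replicate 1 stood at −0.0499, while the other T cell arrays lay between −0.24 and −0.20. Chance marks about 1 in 20 such sets.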

How the results depend on the processing

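With the median per bin, 279 bins passed against T cells, 505 against naive, 55 against Th1 and 210 against Th2 cells, and of the bins of chromosome 10 lower against Th2 cells 11 passed, in place of 109. Scaling by the spread gave 558 bins against naive and 338 against Th1 cells, quantile normalization gave 302 against Th1 cells, leaving out extreme probes gave 107 against Th1 cells, and the serial series as a random block gave 483 against Th2 cells. Leaving out one array at a time gave 222 (without 3T3-L1 replicate 1) to 728 bins (without naive replicate 1) against T cells, 413 to 1166 against naive, 91 to 213 against Th1 and 124 to 345 against Th2 cells. Bands passing numbered 30 to 88 in that way and 111 without the Th1 arrays. Chromosomes passing numbered 4 to 8 in that way and 1 with the median over the probes of a chromosome. They numbered 6 with only the compared groups in the fit, a setting chosen after seeing the data. Contact bins of 3T3-L1 numbered 40 with the highest 2% of probes and 111 with the highest 10%. Differences that changed sign were those at 0.1 to 1 Mb (0.11) and 1 to 2 Mb (0.15) with quantile normalization and at 5 to 10 Mb with the median (0.079). That at 10 to 20 Mb did so without the Th1 arrays (−0.052) and with the Stat4 knockout arrays counted among the T cells (−0.0054). It also did so without Th1 replicate 2 (−0.016, where leaving out single arrays gave −0.016 to 0.086). Those of chromosomes 5 (−0.0067) and 18 (−0.00083) did so with the median over the probes of a chromosome. The cause of these changes was not tested. No named region changed direction. Replicate numbers in the labels do not say that arrays share a culture or day, and deviations of same-numbered arrays off chromosome 10 correlated at −0.19 to 0.26; with the replicate number as a block 551 bins passed, in place of 615, and all 22 regions kept their call. Low signal above the level of other chromosomes limits the small differences off chromosome 10, and 2 arrays per group limit all.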
